A study of Mus musculus with 9 samples.

Results

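Interferon-stimulated genes are described here in mouse heart, as 40 genes chosen by symbol: Ifit1, Ifit2, Ifit3, Ifit3b, Isg15, Irf1, Irf7, Irf9, Stat2, Oas1a, Oas2, Oas3, Oasl1, Oasl2, Mx2, Rsad2, Usp18, Ifi27, Ifi44, Ifi35, Bst2, Rtp4, Xaf1, Ddx58, Ifih1, Dhx58, Parp9, Parp14, Dtx3l, Trim25, Gbp2, Gbp3, Gbp7, Igtp, Irgm1, Cmpk2, Ifi47, Iigp1, Zbp1 and Lgals3bp. All 40 were found by symbol among the 29237 genes of the expression table. The samples were hearts of wild-type C57BL/6 mice of 8 to 12 weeks, sequenced as messenger RNA in 9 libraries, 3 for each of the treatments Control, DOX and TPTN. DOX stands for doxorubicin, an anthracycline used against cancer that can injure heart muscle, and the series title places TPTN in a doxorubicin model of dilated cardiomyopathy. Dose, day and any doxorubicin given to the TPTN mice are not stated in the labels. Nor do they call the replicates separate animals, and p-values therefore cover the spread between these samples only.

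Interferons are secreted proteins that warn cells of infection or of nucleic acid in the wrong place. Type I interferons bind a receptor whose kinases activate the factor ISGF3, which holds STAT2 and IRF9 and binds the interferon-stimulated response element in the promoters of its targets. Type II interferon acts at a shorter element, the gamma-activated site. The induced genes encode sensors of viral RNA, enzymes and binding proteins that block virus growth, GTPases that attack the vacuoles of microbes, and the transcription factors that sustain the response. In the heart they are studied in myocarditis and in sterile injury.

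Promoter sequence was compared first, because the response element is the feature that interferon targets are known to share. The RefSeq promoter table, on GRCm38.p6, covers 250 bases before to 50 bases after a gene's start and held 30 of the 40 genes. The response element was searched on both strands as GAAA, any 2 bases and GAAA again, which reads as TTTC, any 2 bases and TTTC on the opposite strand, and overlapping matches were each counted. A match occurred in 16 of the 30 interferon-stimulated genes (53.3%), against 1079 of 27025 genes with a promoter sequence (3.99%). Among tested genes with a promoter sequence it occurred in 15 of 28 members (53.6%), against 320 of 8922 genes (3.59%). The gamma-activated site was searched as TTCNNNGAA, which reads the same on both strands. It occurred in 7 of the 30 (23.3%), against 2582 of 27025 genes (9.55%). Among tested genes it occurred in 7 of 28 members (25%), against 712 of 8922 genes (7.98%). A match describes the letters only.

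The windows below belong to the most abundant tested members that hold the element, and capitals mark the element or a run of overlapping ones, each read 5′ to 3′ along the gene's own strand. Bst2 lies on the minus strand at chr8:71537567-71537622 with 2 overlapping matches that end 114 bases before the start, and Igtp on the plus strand at chr11:58199502-58199551 with 1 match. Gbp2 is shown at chr3:142620594-142620623 (plus), Isg15 at chr4:156200855-156200916 (minus, 3 overlapping matches), and Gbp3 at chr3:142559979-142560025 (plus, 2 overlapping matches). The Gbp2 match ends 49 bases before the RefSeq start but lies in an annotated exon, and the annotated gene begins at 142620602. Ifit3 at chr19:34583353-34583436 (plus) holds 2 separate matches. Ifit3b at chr19:34607749-34607832 (plus) is less abundant and was added after its 84-base window was seen to be identical to that of Ifit3.
Bst2: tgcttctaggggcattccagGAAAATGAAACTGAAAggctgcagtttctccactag
Igtp: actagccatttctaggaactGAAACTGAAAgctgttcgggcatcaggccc
Gbp2: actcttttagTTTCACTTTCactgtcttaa
Isg15: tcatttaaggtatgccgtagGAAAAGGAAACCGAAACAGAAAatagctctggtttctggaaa
Gbp3: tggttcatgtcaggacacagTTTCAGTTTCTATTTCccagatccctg
Ifit3: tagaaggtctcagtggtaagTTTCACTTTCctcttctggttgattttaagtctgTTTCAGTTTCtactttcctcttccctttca
Ifit3b: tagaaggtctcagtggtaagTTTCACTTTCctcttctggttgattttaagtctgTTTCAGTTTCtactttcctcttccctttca

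The genes lie on 14 chromosomes, and several sit in clusters of related copies. Ifit2, Ifit3, Ifit3b and Ifit1 span 99.3 kb of chromosome 19 (34550694 to 34650009), Gbp7, Gbp3 and Gbp2 span 108 kb of chromosome 3, and Oas2, Oas3 and Oas1a span 177 kb of chromosome 5. Parp14, Dtx3l and Parp9 share 140 kb of chromosome 16, and Rsad2 and Cmpk2 share 37.1 kb of chromosome 12. Copies can share reads. Of the 31-base words in the exons of Ifit3, 61.8% also occur in Ifit3b, and 68.7% of those in Oas1a also occur in Oas1g, so the values of Ifit3, Ifit3b and Oas1a are uncertain. The share was 15.9% for Igtp, with Irgm2, and 14.7% for Gbp7 with any other gene.

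Levels are given as FPKM, a count of fragments relative to the transcript's length and to the library's total, which allows genes to be compared per length. Interferon-stimulated genes were modestly expressed in these hearts. Bst2, a membrane protein that tethers budding virus, had the highest mean over the 9 libraries at 14.0 FPKM, followed by Ifi27, a small interferon-induced membrane protein, at 13.02 and Lgals3bp, a secreted galectin-binding glycoprotein, at 8.58. A mean of at least 5 FPKM was reached by 8 of the 40 genes and a mean of at least 1 by 33. Genes with a mean of at least 0.5 FPKM entered the test, which left 36 of the 40 and 12500 genes in all. The 4 left out were Mx2, Zbp1, Ifi44 and Oas3, with means of 0.375, 0.299, 0.26 and 0.0363. Mx2 belongs to an antiviral GTPase family and is annotated as a polymorphic pseudogene. Zbp1 is a sensor of Z-form nucleic acid, and Oas3 an enzyme of the 2-5A synthetase family. The median tested member had a mean of 2.76 FPKM, close to the 3.07 FPKM of the median tested gene.

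**Figure D1:**
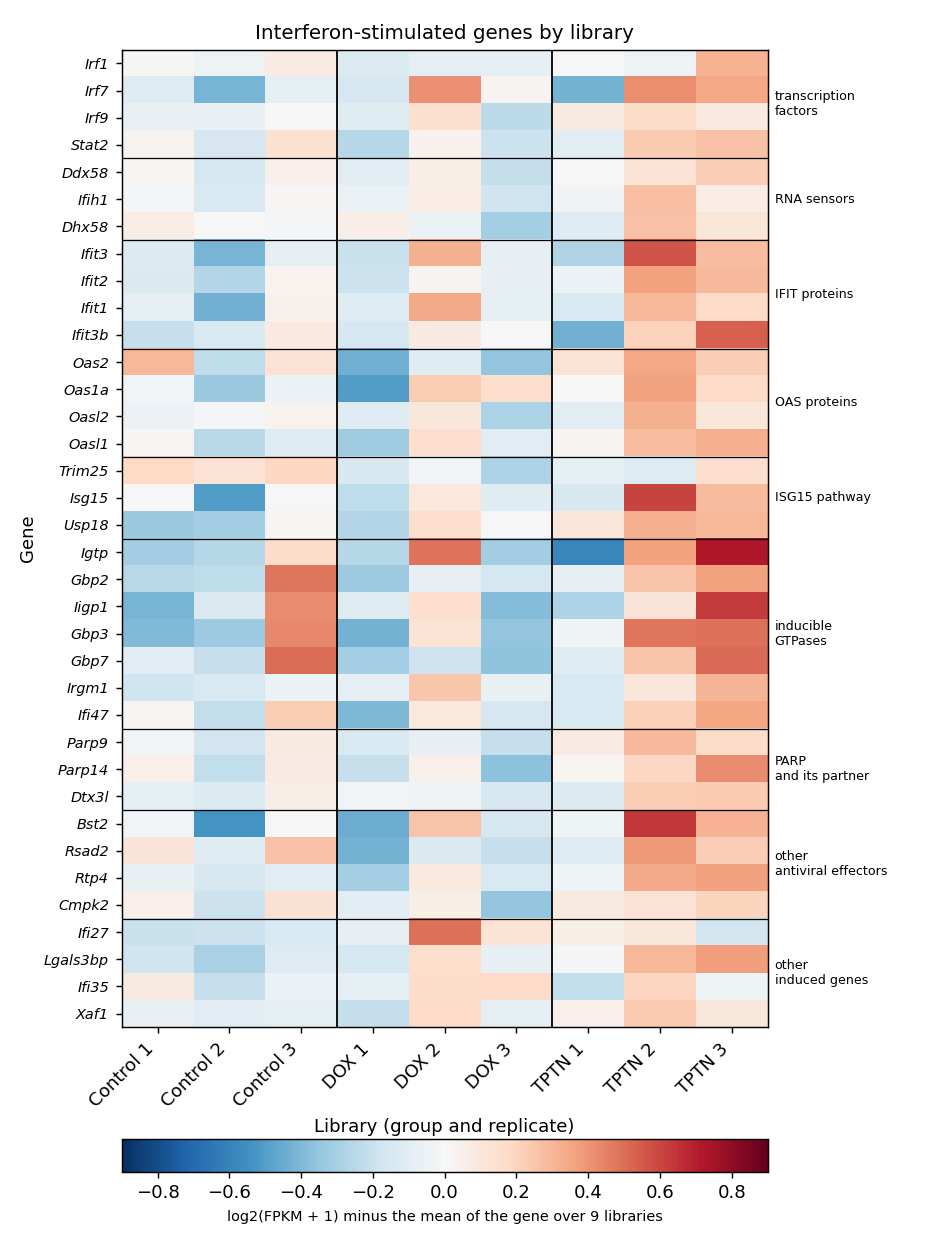
Level of each tested interferon-stimulated gene in the 9 libraries, as log2(FPKM + 1) minus the gene's mean over all libraries, in colour, with rows grouped by the protein's role. TPTN 2 and TPTN 3 are the warmest columns and hold the highest value of 32 of the 36 genes, 16 each. They hold it for 17.5% and 12.4% of all tested genes. TPTN 1 is close to the Control and DOX libraries.

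Certain libraries stood apart from others of their own group across these genes, and this bears on every comparison that follows. DOX 2 was the highest of the 3 DOX libraries for 33 of the 36 tested genes, against 28.4% of all tested genes. TPTN 1 was the lowest of the 3 TPTN libraries for 33 of the 36, against 52.6% of all tested genes. In Control the pattern was milder. Control 3 was highest for 28 genes, against 32.7% of all tested genes, and Control 2 lowest for 25, against 42.8%. The median deviation from the group mean, on the log2(FPKM + 1) scale, was 0.19 in DOX 2 and -0.23 in TPTN 1 for the tested members, and 0.00 and -0.04 for the other tested genes.

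The 7 tested GTPases, which attack microbial vacuoles, stood out in Control 3. Their median deviation there was 0.44, and the next largest value of any role was 0.16. It was 0.25 in DOX 2 and -0.33 in TPTN 1, where the IFIT genes had -0.36. Gbp2, a guanylate-binding protein, stood at 8.52 FPKM in Control 3 against 4.74 and 4.82 in the other Control libraries, and Gbp3 at 4.76 against 2.24 and 2.40. Among the TPTN libraries the leading one also depended on the role. TPTN 3 held the highest of all 9 values for 6 of the 7 GTPases (Igtp, Iigp1, Gbp3, Gbp7, Irgm1 and Ifi47), while TPTN 2 held it for Bst2, Isg15, Usp18, Ifit2, Ifit3, Oas1a, Oas2 and Oasl2 among others. Igtp ranged over 4.60, 9.80 and 12.9 FPKM in TPTN 1, 2 and 3.

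These deviations were shared by most of the genes. Over the 630 pairs of tested members, the deviations from group means had a median Pearson correlation of 0.68 and were positive in 97.9% of pairs. A systematic sample of 1250 tested genes gave a median of 0.08 and 56.5% positive. Stat2, a subunit of ISGF3, had the highest median correlation with the other members at 0.82, followed by Ifit2 and Ifi47 at 0.81. Irf1, a factor induced by both types of interferon, had the lowest at 0.36, then Dhx58 at 0.37 and Ifi27 at 0.38. These correlations rest on 9 libraries, within each of which all genes share 1 depth and scaling, and they are given as a description.

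Signs of other cells and of RNA makeup were read beside these libraries. Summed T cell markers (11 genes) lay between 0.713 and 2.66 FPKM and summed NK cell markers (8 genes) between 0.165 and 1.80 FPKM, each highest in DOX 2. B cell markers were also highest there, at 6.11 FPKM. Summed heart muscle markers (10 genes, led by Mb, Actc1 and Myl2) lay between 17105 and 20585 FPKM and were far above the markers of every other cell type listed. Macrophage markers (12 genes) lay between 134 and 183 FPKM with overlapping groups. Fibroblast markers (10 genes) summed to 601.8 FPKM in DOX 1 and to between 342 and 418 in the other libraries. Neutrophil markers (7 genes, 2 of them tested) separated all groups, with sums of 4.99 to 12.5 FPKM in Control, 1.44 to 4.37 in DOX and 0.687 to 0.802 in TPTN, and their defining marker Ly6g was listed at 0 in every library but Control 2. S100a9 of that list was lower in TPTN than in Control (log2 difference -2.01, limma adjusted p = 0.0264). Other marker calls were in endothelium and heart muscle. Kdr of endothelium was higher in TPTN than in DOX (0.48, limma adjusted p = 0.0303) and than in Control (0.66, adjusted p = 0.0161). The 10 endothelial markers did not share this direction. In TPTN against DOX 3 were positive and 7 negative (median -0.06), and in TPTN against Control 7 were positive and 3 negative (median 0.02). In DOX against Control the calls were the heart muscle genes Myl2 (0.38, limma adjusted p = 0.0339), Tnni3 (0.28, 0.0412) and Ryr2 (-0.56, 0.0327). Short nuclear, nucleolar and related RNA summed to 930.4 FPKM in TPTN 1 and 643.9 in Control 3, and to between 126 and 435 in the other 7 libraries. In whole tissue, fewer cells of a type and less RNA per cell cannot be told apart, and the part of these measures in the results was not tested.

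**Figure D2:**
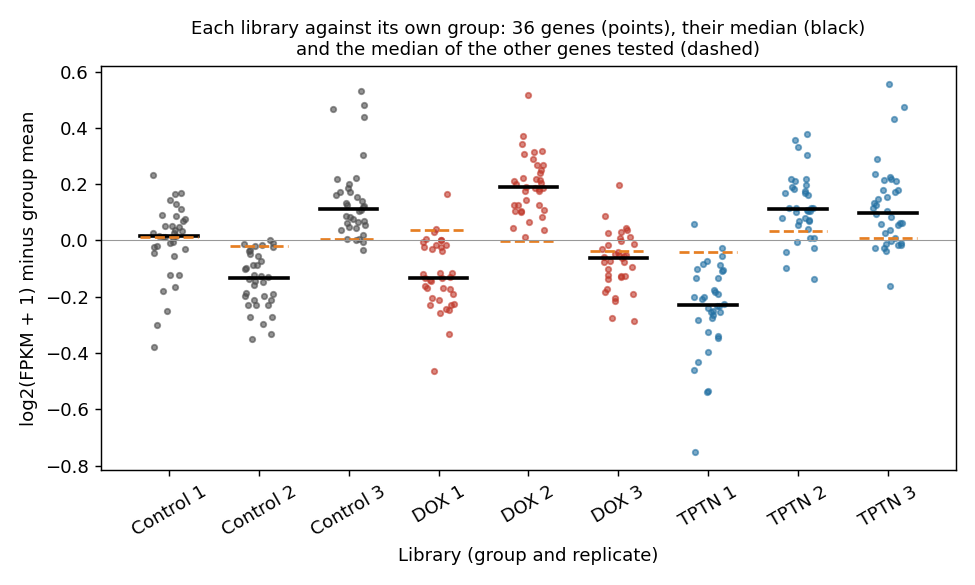
Deviation of each tested interferon-stimulated gene from the mean of its own group, in log2(FPKM + 1), by library, with medians of these genes (black) and of the other tested genes (dashed) marked. The members of DOX 2 lie above the line at 0 with a median of 0.19, and those of TPTN 1 mostly below it with a median of -0.23, while the medians of the other tested genes stay between -0.04 and 0.04.

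DOX was compared with Control to ask what changed in the doxorubicin model, and interferon-stimulated genes showed no shared direction. None of the 36 tested genes passed an adjusted p under 0.05 in limma, where 2.63% of all tested genes did, 2.23% higher and 0.4% lower. At an unadjusted p under 0.05, 1 was higher and 3 were lower, against 14.6% and 3.47% of all tested genes. The median log2 difference in log2(FPKM + 1) was -0.02, beside 0.04 for all tested genes, with 16 of the 36 positive and 20 negative, against 62.8% and 37.2% of all tested genes. When FPKM was rescaled to the sum outside mitochondrial genes and their copies, the median of all tested genes moved from 0.04 to -0.07 and that of the members to -0.13. The calls over all tested genes then went from 279 higher of 329 to 61 higher of 270. Differences on this scale understate those of genes with low FPKM.

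Trim25, the ubiquitin ligase that activates the RNA sensor RIG-I, had the smallest p. Control 1, 2 and 3 gave 5.98, 5.76 and 6.00 FPKM, and DOX 1, 2 and 3 gave 4.57, 5.07 and 4.09. TPTN values were 4.79, 4.69 and 5.86. Every DOX value lay below every Control value, and TPTN 3 lay within the Control range. The log2 difference of DOX from Control was -0.31 (SE 0.09, limma adjusted p = 0.0978, n = 3 each). Trim25 (ENSMUSG00000000275) lies on chromosome 11 from 88999376 to 89020293, and was the only tested member with its highest group mean in Control.

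Ifi27 (ENSMUSG00000064215, chromosome 12, 103434211 to 103440239) went the other way. Its values were 11.1, 11.1 and 11.6 FPKM for Control and, without overlap, 12.1, 18.6 and 14.1 for DOX. The TPTN libraries gave 13.4, 13.9 and 11.3. DOX 2 held the highest value. The log2 difference of DOX from Control was 0.36 (SE 0.13, limma adjusted p = 0.177), and it was 0.20 with DOX 2 left out. Lgals3bp differed by 0.17 (SE 0.11, adjusted p = 0.486) with overlapping groups, and by 0.08 without DOX 2.

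Oas2, an enzyme that makes the 2-5A messenger that switches on RNase L, differed by -0.37 (SE 0.13, limma adjusted p = 0.184). Rsad2, the radical enzyme viperin, differed by -0.35 (SE 0.14, adjusted p = 0.224), and the guanylate-binding protein Gbp7 by -0.35 (SE 0.20, adjusted p = 0.417). The Gbp7 difference was -0.13 with Control 3 left out. Groups did not overlap for Trim25, Rsad2 and Irf1, all 3 lower in DOX, and for Ifi27, higher, against 5.1% and 17.7% of all tested genes.

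The comparison of TPTN with DOX sets the TPTN libraries beside those of the model, and its DOX libraries are those of the comparison above. Whether the TPTN mice received doxorubicin is not stated, so a difference cannot be read as what TPTN changed in the model. No single gene passed the adjusted threshold in limma, where 3.26% of all tested genes did, 0.792% higher and 2.46% lower. The direction was nevertheless nearly uniform: 34 of the 36 tested genes had a positive log2 difference and 2 a negative one, against 48.1% and 51.9% of all tested genes, with a median of 0.23 beside -0.01. At an unadjusted p under 0.05, 10 were higher and none lower, against 7.78% and 12.9% of all tested genes. Because these genes vary together between libraries, the 34 are not independent observations. With TPTN 1 left out the median was 0.37 and 22 genes were higher at an unadjusted p under 0.05, against 7.58% of all tested genes. Without DOX 2 the count was 19 (6.18% of all tested genes), and without TPTN 3 it was 3 (5.75%). It was 4 without DOX 3 (4.79%) or TPTN 2 (4.82%), and 3 higher with 1 lower without DOX 1 (11.8% and 12.7%). The rescaling to the sum outside mitochondrial genes gave 25 higher, against 21.9% of all tested genes.

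Oas2 (ENSMUSG00000032690, chromosome 5, 120730333 to 120749853) had the smallest p. It measured 1.57, 2.21 and 1.72 FPKM in DOX, 2.80, 3.42 and 3.03 in TPTN, and 3.27, 1.95 and 2.80 in Control. All 3 TPTN values lay above all DOX values, and the Control values spanned both. Means were 1.83 ± 0.336 in DOX and 3.09 ± 0.312 in TPTN (SD, n = 3 each), a log2 difference of 0.53 (SE 0.13, 95% interval 0.23 to 0.83, limma adjusted p = 0.0611). The call of Oas2 depended on the setting. Its adjusted p was 0.0437 without Control 1, 0.0271 without Control 2 and 0.0364 in a fit of DOX and TPTN alone, and it ranged up to 0.157 when other libraries were left out.

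Parp9 and Parp14, ADP-ribosyltransferase family proteins that act on interferon signalling, lie in 1 cluster with Dtx3l, the ubiquitin ligase that pairs with PARP9. Parp9 (ENSMUSG00000022906, chromosome 16, 35938470 to 35972605) measured 2.47 to 2.79 FPKM in DOX, 3.21, 3.90 and 3.49 in TPTN, and 2.93, 2.54 and 3.24 in Control. TPTN lay wholly above DOX and overlapped Control at TPTN 1. The log2 difference from DOX was 0.32 (SE 0.09, limma adjusted p = 0.0751). Parp14 measured 2.19, 2.80 and 1.85 in DOX and 2.74, 3.19 and 3.95 in TPTN, with 1 overlap (log2 difference 0.39, SE 0.13, adjusted p = 0.136). Control values of Parp14 were 2.80, 2.16 and 2.88, and Dtx3l differed by 0.18.

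Rsad2 and Cmpk2 are neighbours on chromosome 12, and CMPK2 makes the nucleotide that viperin uses. Rsad2 measured 1.97, 2.64 and 2.45 FPKM in DOX, 2.68, 4.18 and 3.63 in TPTN, and 3.32, 2.70 and 3.78 in Control. DOX was the low group, with its highest library just under the lowest of the others. The log2 difference of TPTN from DOX was 0.42 (SE 0.14, limma adjusted p = 0.128), and Cmpk2 differed by 0.27, also without overlap. Rtp4, a transmembrane antiviral protein, measured 1.78, 2.65 and 2.14 in DOX and 2.35, 3.36 and 3.45 in TPTN (log2 difference 0.34, SE 0.12, adjusted p = 0.152). Bst2, at 9.72, 16.4 and 12.1 in DOX and 13.2, 21.6 and 17.1 in TPTN, differed by 0.41 with wide overlap.

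**Figure D3:**
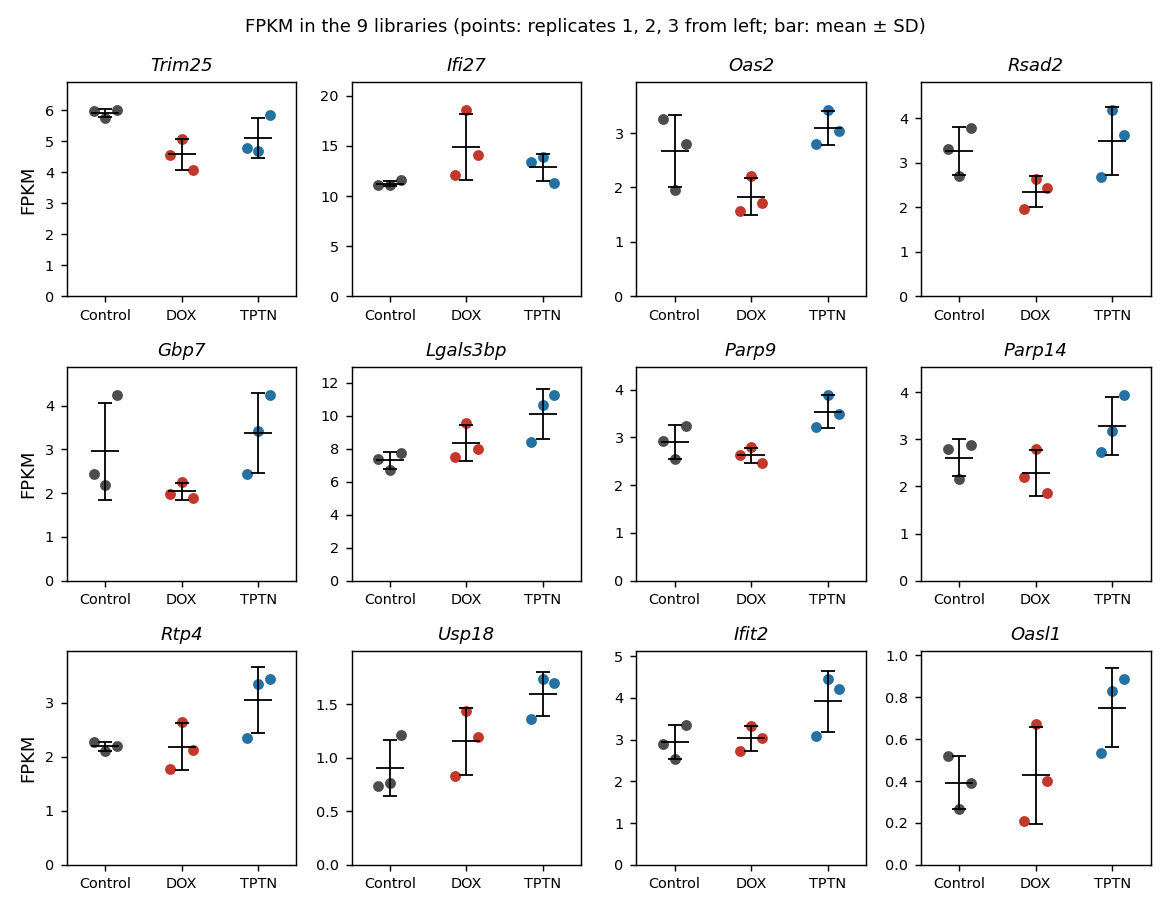
FPKM of the 12 interferon-stimulated genes that had the 6 smallest p-values in at least 1 comparison, each point a library and each bar the mean with the SD of 3 libraries. Oas2, Parp9, Rsad2 and Gbp7 show DOX libraries wholly below the TPTN libraries, and Lgals3bp and Usp18 show Control libraries wholly below them.

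Among the GTPases, Gbp7 measured 1.99, 2.25 and 1.88 FPKM in DOX and 2.43, 3.42 and 4.26 in TPTN, against 2.45, 2.20 and 4.24 in Control. DOX lay below TPTN, while Control 3 lay close to the highest TPTN library. The log2 difference of TPTN from DOX was 0.50 (SE 0.20, limma adjusted p = 0.198). Gbp3 differed by 0.53 and Gbp2 by 0.37, and the immunity-related GTPases Iigp1 by 0.27, Ifi47 by 0.30, Igtp by 0.19 and Irgm1 by 0.06, all with overlap except Gbp2. The median of the 7 was 0.30.

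The remaining roles were mostly positive. The transcription factors Irf1, Irf7, Irf9 and Stat2 had a median log2 difference of 0.18 between TPTN and DOX, from 0.02 for Irf7, the factor that drives interferon production, to 0.27 for Stat2. The RNA sensors Ddx58 (RIG-I), Ifih1 (MDA5) and Dhx58 (LGP2) had a median of 0.19. The IFIT proteins, which bind foreign RNA ends, had a median of 0.15, from 0.06 for Ifit1 to 0.28 for Ifit2. The OAS proteins had a median of 0.26, with Oas1a at 0.22, Oasl2 at 0.20 and Oasl1 at 0.30. In the ISG15 pathway, Isg15, the ubiquitin-like modifier itself, differed by 0.33 and Usp18, the protease that removes it, by 0.28. Ifi27 (-0.18) and Ifi35, a regulator of innate signalling (-0.10), were the 2 tested members with a negative value. Xaf1, linked to cell death, differed by 0.17.

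Groups did not overlap between TPTN and DOX for Oas2, Parp9, Rsad2, Gbp7, Cmpk2, Irf1 and Gbp2, all 7 higher in TPTN (19.4% of 36, against 10.4% of all tested genes). No member had TPTN wholly below DOX, against 14.1% of all tested genes.

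**Figure D4:**
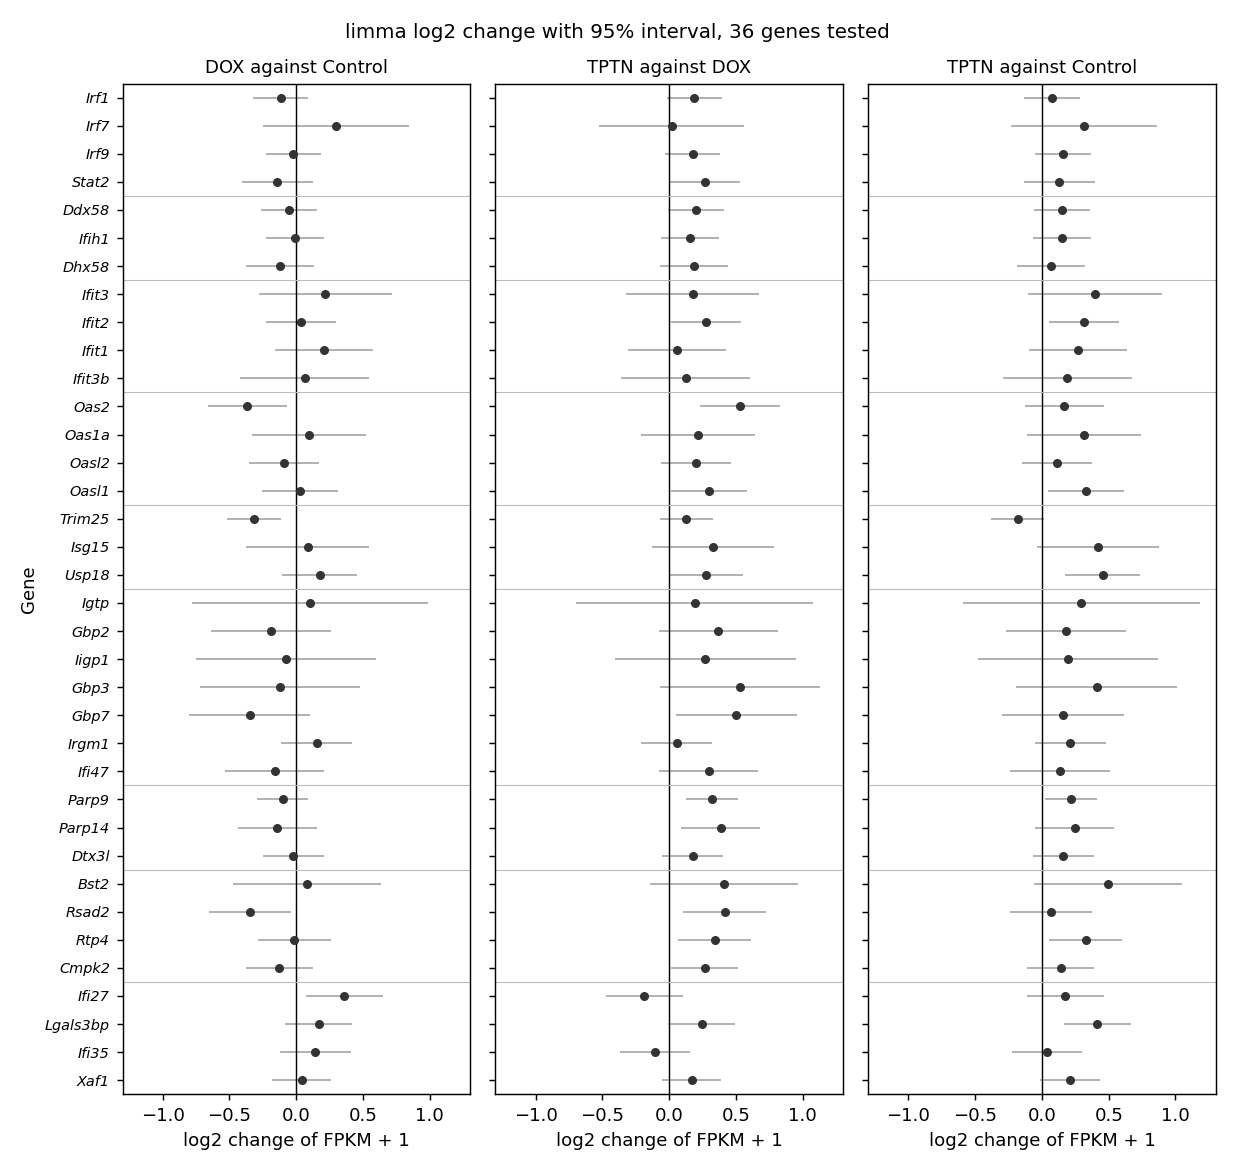
Log2 difference of each tested interferon-stimulated gene in the 3 comparisons, with bars for the 95% interval from limma. In TPTN against DOX 34 of 36 points lie above 0 and in TPTN against Control 35 of 36, and in DOX against Control they lie on both sides.

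The comparison of TPTN with Control uses the same Control and TPTN libraries as above, so its values are set side by side with the others and not counted as further support. No member passed the adjusted threshold in limma, where 0.72% of all tested genes did, 0.336% higher and 0.384% lower. At an unadjusted p under 0.05, 6 were higher and none lower, against 9.02% and 4.12% of all tested genes. A positive log2 difference was found in 35 of the 36, with 1 negative, Trim25 (-0.18), against 62.4% and 37.6% of all tested genes. The median was 0.19 beside 0.04. With TPTN 1 left out it was 0.31, and 16 genes were higher at an unadjusted p under 0.05, against 9.73% of all tested genes. That count was 2 without Control 2 (5.44%), TPTN 2 (6.26%) or TPTN 3 (6.17%, with 1 lower).

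Lgals3bp (ENSMUSG00000033880, chromosome 11, 118392751 to 118402092) had the smallest p. Levels were 7.36, 6.73 and 7.76 FPKM for Control, 7.49, 9.58 and 7.99 for DOX and 8.38, 10.7 and 11.3 for TPTN. Control lay below TPTN, and DOX fell between them with overlap on both sides. The log2 difference of TPTN from Control was 0.42 (SE 0.11, limma adjusted p = 0.141). Usp18 (ENSMUSG00000030107, chromosome 6) measured 0.739, 0.762 and 1.21 FPKM for Control, 0.825, 1.44 and 1.19 for DOX and 1.36, 1.74 and 1.69 for TPTN. Its order was the same, and its log2 difference was 0.45 (SE 0.13, adjusted p = 0.149).

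Ifit2 gave 2.90, 2.55 and 3.36 FPKM across Control, 2.72, 3.33 and 3.05 across DOX and 3.10, 4.46 and 4.21 across TPTN. Raised values were those of TPTN 2 and 3, with TPTN 1 inside the range of the other groups. The log2 difference of TPTN from Control was 0.32 (SE 0.12, limma adjusted p = 0.282). Rtp4, at 2.28, 2.11 and 2.21 FPKM in Control, differed by 0.33 (SE 0.12, adjusted p = 0.286), without overlap. Oasl1, a synthetase relative without the enzyme activity, measured 0.520, 0.267 and 0.390 across Control, 0.210, 0.670 and 0.402 across DOX and 0.534, 0.830 and 0.888 across TPTN. TPTN 1 barely cleared the highest Control value, and the log2 difference was 0.33 (SE 0.13, adjusted p = 0.308). Parp9 differed by 0.22 (SE 0.09, adjusted p = 0.321). Groups did not overlap for Lgals3bp, Usp18, Rtp4, Oasl1, Xaf1, Irf9 and Oas1a, 7 of 36 higher in TPTN (19.4%) and none lower, against 15.2% and 6.03% of all tested genes.

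Group means fell into 2 main orders. In 19 of the 36 genes TPTN was highest and DOX lowest, an order held by 18.6% of all tested genes. This set held the RNA sensors, the PARP cluster, Oas2, Oasl2, Rsad2, Cmpk2, Rtp4, Stat2, Irf1, Irf9, the guanylate-binding proteins, Iigp1 and Ifi47. In 14, TPTN was highest and Control lowest (19.6% of all tested genes), and these held the 4 IFIT genes, Isg15, Usp18, Irf7, Bst2, Lgals3bp, Igtp, Irgm1, Oas1a, Oasl1 and Xaf1. Within most of these genes neighbouring groups did not differ beyond the spread of their libraries.

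Genes upstream of the response gave few calls. Of 21 interferon genes listed, 3 were in the table (Ifna4, Ifnab and Ifnz) and none was tested, with summed values of 0 to 0.154 FPKM. The 6 receptor chains were tested in all 3 comparisons and none passed in limma, with 3, 0 and 1 higher and 0, 1 and 0 lower at an unadjusted p under 0.05 in DOX against Control, TPTN against DOX and TPTN against Control. The shares of all tested genes were 14.6, 7.78 and 9.02% higher and 3.47, 12.9 and 4.12% lower. Ifngr2, a chain of the type II receptor, stood at 22.6 ± 0.448 FPKM for Control, 26.5 ± 1.96 in DOX and 28.3 ± 1.76 in TPTN (SD, n = 3 each). Il10rb and Ifngr1 were the next most abundant. Of 12 tested genes of JAK-STAT signalling and its brakes, Ptpn11, the phosphatase SHP2, fell in DOX against Control (34.5 to 26.8 FPKM, log2 difference -0.35, limma adjusted p = 0.0436). It was also lower in TPTN than in Control (25.2 FPKM, -0.43, adjusted p = 0.0338). Jak1 and Cish were the next most abundant of this list. Of 17 tested genes that sense nucleic acid upstream of interferon, led by Mavs, Irf3 and Unc93b1, none passed in any comparison. At an unadjusted p under 0.05 they gave 0 higher and 1 lower in DOX against Control, 3 and 2 in TPTN against DOX and 3 and 0 in TPTN against Control.

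A wider list of 62 tested interferon-stimulated genes outside the 40, led by Ifitm3, Ifitm2 and Ifi27l2a, gave calls in both directions. In limma 1 was higher and 1 lower in DOX against Control (2.23% and 0.4% of all tested genes). The counts were 2 and 1 in TPTN against DOX (0.792% and 2.46%) and 0 and 2 in TPTN against Control (0.336% and 0.384%). At an unadjusted p under 0.05 they were, in the same order, 5 and 7 (14.6% and 3.47%), 17 and 4 (7.78% and 12.9%), and 6 and 4 (9.02% and 4.12%). In TPTN against DOX, Slfn5, a Schlafen family protein, was higher, at 15.9 against 10.9 FPKM (log2 difference 0.51, limma adjusted p = 0.0236). Pnpt1, a mitochondrial RNA-degrading enzyme, was higher too, at 5.67 against 3.91 (0.44, adjusted p = 0.0303). In DOX against Control Pnpt1 was lower, from 5.45 FPKM in Control (-0.40, adjusted p = 0.0443). In TPTN against DOX, Ifi205, of the family that includes DNA sensors, was lower, at 1.33 against 2.16 FPKM (-0.43, adjusted p = 0.0437). In that comparison 47 of the 62 were positive with a median of 0.14, beside 48.1% and -0.01 for all tested genes. In TPTN against Control, Ifi205 (-0.79, adjusted p = 0.00819) and its relative Ifi207 (-0.52, adjusted p = 0.0197) were lower, so 2 related genes went against the direction of most others. Ifi30, a lysosomal thiol reductase, rose in DOX against Control (3.10 to 4.43 FPKM, 0.41, adjusted p = 0.0294), where 19 of the 62 were positive and 43 negative with a median of -0.05, against 62.8% and 37.2% of all tested genes. In TPTN against Control 46 of the 62 were positive with a median of 0.13, against 62.4% of all tested genes.

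Interferon-responsive genes of antigen loading and the immunoproteasome gave no calls. None of the 19 tested passed in any comparison in limma, and none was lower at an unadjusted p under 0.05. At that level 2 were higher in DOX against Control, 0 in TPTN against DOX and 3 in TPTN against Control. Of all tested genes, 14.6, 7.78 and 9.02% were higher and 3.47, 12.9 and 4.12% lower. The median log2 difference of the 19 was 0.12 in DOX against Control, -0.02 in TPTN against DOX and 0.09 in TPTN against Control. The medians of all tested genes were 0.04, -0.01 and 0.04. Positive values were found in 84.2, 42.1 and 73.7% of the 19, against 62.8, 48.1 and 62.4% of all tested genes. The contrast with the members was not tested. The 19 summed to 623.6 FPKM in DOX 2, the highest, against 373 to 521 in the other 8 libraries. B2m, H2-D1 and H2-K1 led this sum.

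The authors' deposited table marks genes by a p-value of theirs, without naming the groups compared. There, in the authors' deposited table, 15 of the 40 genes were marked (37.5%), against 9.89% of all 29237 genes and 21.4% of the tested genes. In the authors' deposited table a q-value under 0.05 was given to Oas2, Lgals3bp and Parp14. By the authors' deposited q-values these are 3 of the 40 genes (7.5%), against 3.58% of all 29237 genes. Most of the 40 were expressed highly enough to be tested, and most of the 29237 were not. The share of tested genes with such a q-value was not computed, so no excess is read from these values. The authors' values are listed with the FPKM of the same 9 libraries, so they are not counted as further support.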

How the data were processed

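Messenger RNA of 9 heart libraries was analysed from the gene table that the authors deposited, which holds FPKM values with a p-value and a q-value per gene, per the file headers. The tools named in the submitters' processing notes are StringTie 1.3.4d, HISAT2 2.0.4 and cutadapt 1.9, with the build GRCm38, and DESeq2 and edgeR without a role. FPKM is relative to the library total, in which mitochondrial genes and their nuclear copies took 62.6 to 70.6% of the sum. This share differed by group without overlap, at 69.3 to 70.6% in Control, 62.6 to 64.5% in DOX and 66.7 to 67.5% in TPTN. Every comparison of FPKM between groups is therefore made on totals of unlike makeup. Low values were whole multiples of 1 read for only 11.2 to 15.9% of entries (tolerance 0.05), so depth is unknown and no count test was run.

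Genes with a mean of at least 0.5 FPKM were tested as log2(FPKM + 1) with limma 3.58.1 (R 4.3.3, data.table version 1.17.8), with 1 mean per group, a mean-variance trend and robust empirical Bayes estimation, 6 residual degrees of freedom and Benjamini-Hochberg adjustment over all 12500 genes. The threshold was an adjusted p under 0.05, two-sided. The members and all gene lists were chosen with earlier results of these data known. Every member is named. The result of a gene of another list is not reported here. Full statistics are given for the 6 smallest p-values in a comparison, promoter windows for the 6 most abundant tested members with the response element, and for other lists the 3 most abundant genes and up to 4 past the threshold. Positions are GRCm38 in GENCODE M21. The script was tested on simulated data. Plots used matplotlib 3.10.9, and other steps used numpy 2.4.6, pandas 2.3.3 and Python 3.11.15. The main fit did not pair samples by replicate number, and the closing section gives the other settings.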

Additional observations from a re-analysis of the deposited data

How the results depend on the processing

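All 287 values of single named members under other settings kept their sign, and 9 of them newly passed the adjusted threshold. Many of the 287 could not change sign. Another filter, the replicate block and a fit of the 2 groups alone leave the log2 difference of a gene as it was. So does leaving out a library of the group that is not compared. The genes were also chosen for the smallest p-values in the main fit, so the kept signs are not read as a test of robustness. No member passed in TPTN against Control under any setting run. In DOX against Control, Trim25 passed (-0.45, limma adjusted p = 0.0373) when FPKM was rescaled to the sum outside mitochondrial genes and their copies, 1 member in all. In TPTN against DOX that rescaling gave 3 members (Oas2 and Parp9, adjusted p = 0.0277, and Rsad2, 0.0468), while the median of all tested genes moved from -0.01 to 0.08. Median ratio scaling gave 1 (Parp9, adjusted p = 0.0472), a minimum mean of 1 FPKM 1 (Oas2, 0.0476), a fit of the 2 groups alone 1 (Oas2, 0.0364), and leaving out single libraries 0 to 1.

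Counts over all genes moved more. For DOX against Control, 329 calls became 2 without a filter, 173 with median ratios (110 of them higher, against 279 of 329), 270 with the rescaling (61 of them higher), 176 with the 2 groups alone and 2 to 314 with a library left out. For TPTN against DOX, 407 became 2 without a filter and 671 with the rescaling (542 of them higher, against 99 of 407), and 45 to 468 with a library left out. For TPTN against Control, 90 became 6 without a filter and 21 to 148 with a library left out. Median member differences over left-out libraries were -0.12 to 0.04 for DOX against Control, 0.18 to 0.37 for TPTN against DOX and 0.15 to 0.31 for TPTN against Control. Libraries with the same replicate number gave correlations of deviations from -0.26 to 0.02 over 9 pairs, for all tested genes. For the members they ran from -0.43 to 0.53. With 3 libraries a group these values cannot exclude a pairing or batch, and the labels state none. With the replicate block the calls over all genes were 170 for DOX against Control and 159 for TPTN against DOX, and no member passed. The cause of these shifts was not tested. The 3 libraries of a group and unknown depth limit every value.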
